A study of Mus musculus with 4 samples.

Results

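The cells described here are the dendritic cells of the mouse trachea, the cells that take up antigen in the airway wall and show it to T cells. They were chosen by their own transcript counts. A member held at least 2 UMIs (unique molecular identifiers, each a tagged transcript copy) summed over Flt3, Zbtb46, Cd209a, Xcr1, Clec9a and Ccr7. It also held at least 10 UMIs summed over the class II genes H2-Aa, H2-Ab1 and Cd74 and at most 1 UMI over the macrophage genes C1qa, C1qb and C1qc. No UMI of the T cell genes Cd3e, Cd3d and Cd3g, of the B cell gene Cd79a or of the epithelial gene Epcam was allowed. Of 35901 kept cells in 4 libraries, 215 met this rule, or 0.599% (exact 95% interval 0.522 to 0.684%). The levels of the genes in this rule therefore describe the choice and support nothing.

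Conventional dendritic cells arise from precursors that depend on the receptor Flt3 and carry the transcription factor Zbtb46. They are grouped into cDC1, which express Xcr1 and Clec9a, depend on Irf8 and Batf3 and present captured antigen on class I molecules to CD8+ T cells, and cDC2, which express Cd209a, Sirpa and Irf4 in the mouse and mainly prime CD4+ T cells through class II molecules. On maturation either kind gains Ccr7, the receptor that guides it to the draining lymph node, together with co-stimulatory ligands for T cells. In the trachea such cells lie in and under the epithelium, beside macrophages that stay in the tissue.

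Each group was 1 library of dissociated tracheal cells: dorsal trachea of knockout mice, ventral trachea of knockout mice, dorsal trachea of control mice and ventral trachea of control mice. Knockout mice carried the recombinase alleles P63-CreER and Ki67-lsl-Dre, the reporter Rosa26-rsr-GFP and the floxed gene as Ctnnb1-fl/fl, and control mice carried the same recombinase and reporter alleles with Ctnnb1-fl/+. All mice received tamoxifen, which switches on the Cre recombinase, and tissue was collected 10 days later. Cre is driven by the P63 gene of basal epithelial cells, so the deletion of Ctnnb1, which encodes beta-catenin, was aimed at basal cells and not at dendritic cells. The control is heterozygous for the floxed allele and is not a wild type. The sources used here give neither the number, sex or age of the mice behind a library nor the deleted exons.

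The members numbered 41 in the knockout dorsal library, 35 in the knockout ventral library, 65 in the control dorsal library and 74 in the control ventral library. Their UMIs summed to 773376 in the knockout dorsal and 663411 in the knockout ventral library, against 730346 in the control dorsal and 1113575 in the control ventral library, and levels below are CPM, a gene's counts per 1000000 UMIs of these sums. The median member held 18590 UMIs in the knockout dorsal and 18176 in the knockout ventral library, against 11272 in the control dorsal and 15791.5 in the control ventral library. With 1 library per group there is no replicate, so no difference between groups was tested, and a difference of genotype, region, animal or library preparation cannot be told apart. Intervals are 95% intervals for counting error only, since UMIs of the same cell are not independent. Between 17 and 43 kept cell barcodes were shared by any pair of libraries, and 0 of them by members. A doublet caller marked 2 members, both in the knockout ventral library.

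The deleted gene and the reporter were read first. Ctnnb1 stood at 37.5 CPM in the knockout dorsal and 55.8 CPM in the knockout ventral library, against 52.0 CPM in the control dorsal and 55.7 CPM in the control ventral library. The knockout over control ratio was 0.721 (95% interval 0.429 to 1.20) in dorsal and 1.00 (95% interval 0.648 to 1.53) in ventral dendritic cells, against 0.681 and 0.972 in macrophage-type cells (at least 3 C1q UMIs) of the same libraries. These values check neither genotype label, because the cells are not those in which Cre is expressed. The eGFP transcript was at 90.5, 84.4, 98.6 and 74.5 CPM in the knockout dorsal, knockout ventral, control dorsal and control ventral libraries. Pooled over libraries eGFP was at 85.7 CPM in dendritic cells, 83.2 CPM in macrophage-type cells, 105 CPM in T-type cells and 273 CPM in Epcam-positive cells. Dendritic cells thus held eGFP at a level near that of other immune cells and below that of epithelial cells.

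The marker genes of dendritic cells were carried by a larger share of members than of other immune cells, as the rule requires. At least 1 Flt3 UMI was found in 57.2% of members (median 14285 UMIs per cell), 3.24% of macrophage-type cells (median 8124 UMIs) and 0 of 456 T-type cells (median 6862 UMIs), which allows a share of cells with a UMI of up to 0.658% there (3 counts of the total). Zbtb46 was found in 53.5% of members, 3.13% of macrophage-type and 1.54% of T-type cells. Cd209a was found in 68.8% of members against 13.2% of macrophage-type cells, and Clec9a in 35.8% against 0.895%. Of genes the rule did not use, the integrin Itgax, which encodes CD11c, was found in 52.1% of members, 19.9% of macrophage-type and 1.54% of T-type cells. The leukocyte gene Ptprc was found in 201 of the 215 members. Dpp4 was at 98.3, 119, 108 and 126 CPM in the knockout dorsal, knockout ventral, control dorsal and control ventral libraries in members, and at 4.64 to 9.68 CPM in macrophage-type cells. Plbd1, a phospholipase-like gene of dendritic cells, lay between 758 and 927 CPM in members and between 183 and 223 CPM in macrophage-type cells. Both genes, picked from a list of 13 dendritic cell genes, had non-overlapping levels between the classes in the 4 libraries. The share of all genes with such levels was not counted. Other genes outside the rule that dendritic cells use were found in a smaller share of members than of macrophage-type cells: Irf8 in 23.7% of members against 32.9%, Sirpa in 40.5% against 62.1%, and Mgl2 in 60.5% against 67.3%.

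Few members stood at the marker edge of the rule. Exactly 2 marker UMIs were held by 1 knockout dorsal, 1 knockout ventral, 4 control dorsal and 4 control ventral members, and 5 knockout dorsal, 6 knockout ventral, 6 control dorsal and 12 control ventral cells met every other condition with only 1 marker UMI. A further 13 knockout dorsal, 63 knockout ventral, 43 control dorsal and 100 control ventral cells failed on class II UMIs alone. With at least 3 C1q UMIs, 11 knockout dorsal, 16 knockout ventral, 18 control dorsal and 21 control ventral cells failed on C1q alone. The median member held 18 marker UMIs and 1263 class II UMIs. Of the 215 members 45 held UMIs of 1 of the 6 marker genes, 60 of 2, 63 of 3, 41 of 4, 5 of 5 and 1 of all 6.

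Genes that mark other cell types were then read in the members. Epithelial genes were the highest of these lists: 10 genes summed to 390 CPM in the knockout dorsal and 718 CPM in the knockout ventral library, against 1833 CPM in the control dorsal and 874 CPM in the control ventral library. At least 3 such UMIs were held by 38 of 41 knockout dorsal, 35 of 35 knockout ventral, 65 of 65 control dorsal and 74 of 74 control ventral members. Macrophage-type cells held 651 CPM in the knockout dorsal and 966 CPM in the knockout ventral library, against 2726 CPM in the control dorsal and 3191 CPM in the control ventral library. Fibroblast genes summed to 328 CPM in the knockout dorsal and 549 CPM in the knockout ventral library, against 9.58 CPM in the control dorsal and 504 CPM in the control ventral library, with at least 3 UMIs in 1 knockout dorsal, 3 knockout ventral, 0 control dorsal and 4 control ventral members. The neutrophil genes S100a8, S100a9, Csf3r and Retnlg had 0 UMIs in every library, as had the B cell gene Fcmr, the mast cell genes Cpa3 and Tpsb2 and the endothelial genes Cdh5, Cldn5 and Prox1. Summed over 10 macrophage genes, members held 412, 413, 526 and 354 CPM in the knockout dorsal, knockout ventral, control dorsal and control ventral libraries, where macrophage-type cells held between 9940 and 15999 CPM. Monocyte genes, of which Chil3 was at 0, summed to 662 and 1034 CPM in the knockout dorsal and knockout ventral libraries, against 320.4 and 407 CPM in the control dorsal and control ventral libraries. Their sums in members were thus higher in both knockout libraries than in both control libraries. The knockout dorsal sum rests in part on 1 member, which held 181 UMIs of the monocyte gene Fn1. Without the member with the most UMIs in each library, the dorsal knockout over control ratio of Fn1 was 0.619. Most knockout dorsal UMIs of Plac8, another gene of this list, also came from 1 member. The sums were not recomputed without such members, so the order of the libraries without them is not known. Monocyte-derived cells cannot be told apart from cDC2 by the rule.

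**Figure D1:**
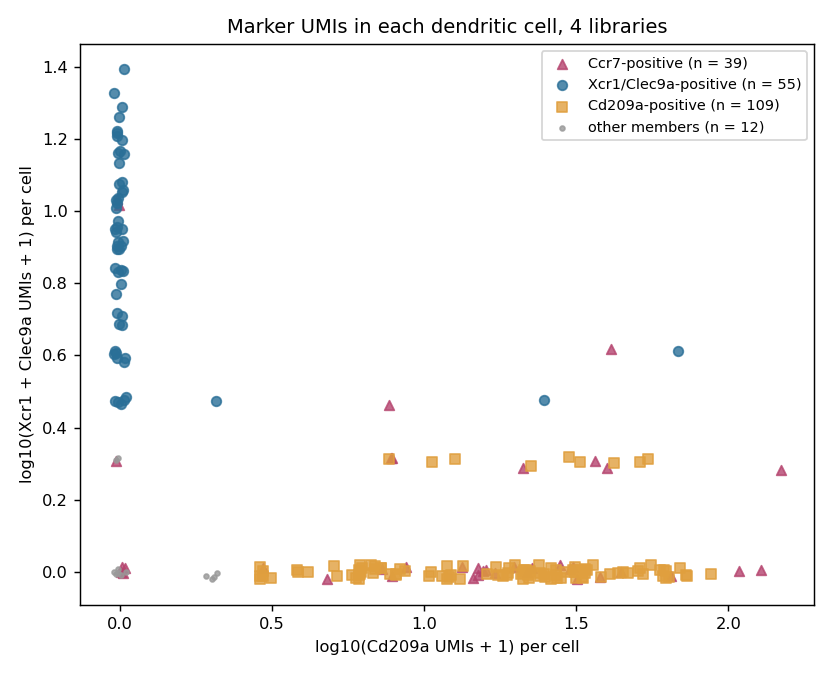
UMIs of Xcr1 and Clec9a summed (vertical, log10 of UMIs + 1) against UMIs of Cd209a (horizontal, log10 of UMIs + 1) for each of the 215 members. Colours and symbols give the marker subgroup. Points are jittered slightly so that cells with equal counts can be seen. Few cells lie away from both axes: 4 members held at least 2 UMIs of Xcr1 and Clec9a and at least 2 UMIs of Cd209a.

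Members were divided by the same marker counts, in a fixed order, into Ccr7-positive cells (at least 2 Ccr7 UMIs), Xcr1/Clec9a-positive cells (at least 2 UMIs over both genes), Cd209a-positive cells (at least 2 UMIs) and others. These are ranges of a count. Pooled, 109 members (50.7%, interval 43.8 to 57.6%) were Cd209a-positive, 55 (25.6%, 19.9 to 32.0%) Xcr1/Clec9a-positive, 39 (18.1%, 13.2 to 24.0%) Ccr7-positive and 12 (5.58%) others. The Cd209a and Xcr1/Clec9a ranges were almost separate: 143 members passed the first cut-off and 59 the second when the order was ignored, and 4 passed both. Of the 39 Ccr7-positive cells, 32 also held at least 2 Cd209a UMIs and 4 at least 2 UMIs of Xcr1 and Clec9a, so most of them were on the Cd209a side.

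Ccr7-positive cells were 3 of 41 members (7.32%, interval 1.54 to 19.9%) in the knockout dorsal and 5 of 35 (14.3%, 4.81 to 30.3%) in the knockout ventral library, against 12 of 65 (18.5%, 9.92 to 30.03%) in the control dorsal and 19 of 74 (25.7%, 16.2 to 37.2%) in the control ventral library. Their share was lower in both knockout libraries, and lower in dorsal than in ventral trachea within each genotype, with intervals that overlap in all 4 pairs. Cells were also thinned to 5000 UMIs, shallower cells were left out and members were chosen again by the rule, so the members are not all the same cells. Of these, 1 of 40 knockout dorsal and 2 of 36 knockout ventral members were Ccr7-positive, against 7 of 66 control dorsal and 16 of 67 control ventral members. The order of shares was the same at equal depth, but the knockout shares rest on 1 and 2 cells. Xcr1/Clec9a-positive cells were 16 of 41 (39.02%, 24.2 to 55.5%) in the knockout dorsal library against 7 of 35 (20.0%, 8.44 to 36.9%) in the knockout ventral library, and 19 of 65 (29.2%, 18.6 to 41.8%) in the control dorsal library against 13 of 74 (17.6%, 9.70 to 28.2%) in the control ventral library. The dorsal share was the higher one in both genotypes, again with overlapping intervals. Cd209a-positive cells made up between 48.6 and 57.1% of members in every library.

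As a share of all kept cells, members were 0.663% (0.476 to 0.898%) in the knockout dorsal and 0.520% (0.363 to 0.723%) in the knockout ventral library, against 0.491% (0.379 to 0.625%) in the control dorsal and 0.759% (0.597 to 0.952%) in the control ventral library. The share was higher in knockout than control dorsal trachea and lower in knockout than control ventral trachea, so this share has no common direction between genotypes. Of cells with a Ptprc UMI, members with such a UMI made up 11.1% in the knockout dorsal and 7.80% in the knockout ventral library, against 12.04% in the control dorsal and 10.5% in the control ventral library. By this measure the share was lower in knockout than control cells in both regions, with intervals that overlap. How many cells survived dissociation of each type is not known, so these are shares of recovered cells.

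**Figure D2:**
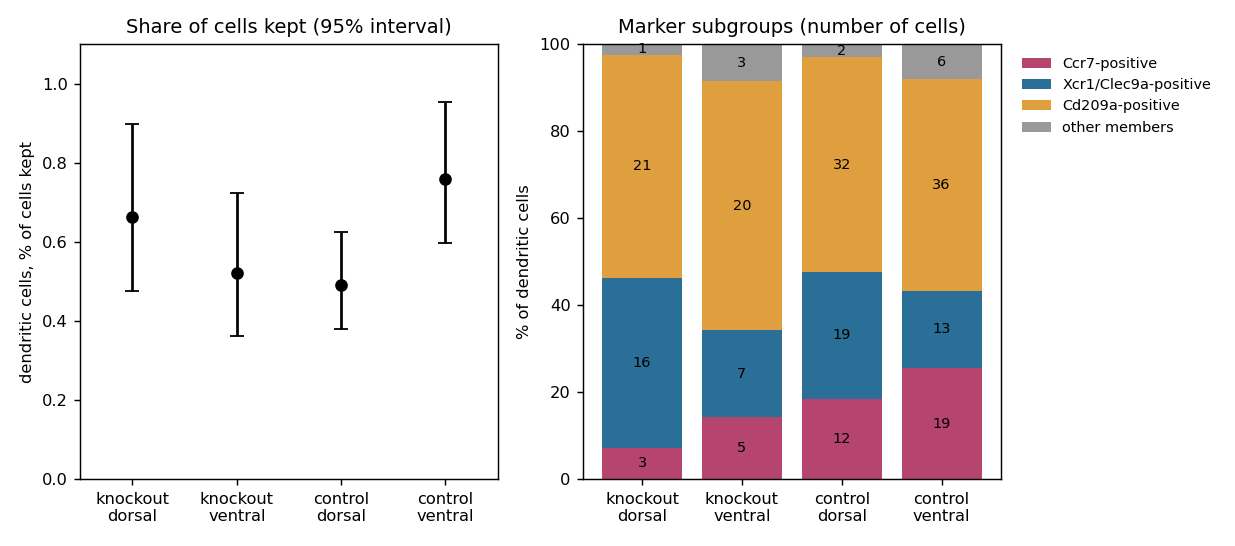
Left: dendritic cells as a percentage of kept cells in each library, with exact 95% intervals. Right: the 3 marker subgroups and the others as percentages of the dendritic cells of each library, with cell numbers. Xcr1/Clec9a-positive cells take a larger part of the dorsal than of the ventral bars, and Ccr7-positive cells are fewest in the knockout dorsal library (3 cells).

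The Xcr1/Clec9a-positive cells carried the other cDC1 genes. Of 12 cDC1 genes outside the rule, 11 were at least 2-fold higher in these cells than in the other members pooled (8.18% of all 9817 genes tested were), with a median log2 ratio of 3.50, against 0.04 over all genes. The exception was Batf3, the cDC1 transcription factor, at 98.7 CPM in Xcr1/Clec9a-positive, 68.9 CPM in Ccr7-positive and 131 CPM in Cd209a-positive cells. Irf8, the factor on which cDC1 depend, was 71.4-fold (95% interval 38.2 to 151) higher, at 151 and 203 CPM in the knockout dorsal and knockout ventral Xcr1/Clec9a-positive cells, against 586 and 338 CPM in the control dorsal and control ventral ones. Its level was thus lower in both knockout libraries, in 16 and 7 cells. Itgae, which encodes the integrin CD103 of mucosal cDC1, was 54.5-fold (95% interval 22.6 to 171) higher and was found in 30 of 55 cells, at 139, 135, 94.4 and 84.4 CPM in the knockout dorsal, knockout ventral, control dorsal and control ventral libraries. Wdfy4, needed for cross-presentation by mouse cDC1, stood at 326 CPM against 76.5 CPM in Cd209a-positive cells. Tlr3, the receptor for double-stranded RNA, stood at 51.5 CPM in Xcr1/Clec9a-positive cells, with 0 UMIs in the Cd209a-positive ones.

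Ranked over all genes outside the rule, the Xcr1/Clec9a-positive cells were also set apart by Ifi205 (13.3-fold, interval 11.0 to 16.3, in 48 of 55 cells), Btla (14.1-fold, interval 9.17 to 22.6, in 44 of 55 cells), an inhibitory receptor of lymphocytes and dendritic cells, and P2ry14 (14.5-fold, interval 9.49 to 22.9), a receptor for UDP-sugars. The homeobox gene Barx2 (60.6-fold, interval 19.9 to 301), the cell polarity gene Lrrc1 (22.7-fold, interval 12.1 to 46.9), Cystm1, Dock5 and B3gnt5 completed the list. The T cell inhibitory receptor gene Havcr2, which encodes Tim-3, stood at 286 CPM, against 36.4 CPM in Cd209a-positive and 79.6 CPM in Ccr7-positive cells. For the class I route, 4 of 14 genes were at least 2-fold higher (8.18% of all genes were) and 2 were at least 2-fold lower (14% were), the transactivator gene Nlrc5 and Cybb. The higher ones were the peptide transporter genes Tap1 (97.6 CPM against 35.2 CPM in Cd209a-positive cells) and Tap2 and the immunoproteasome genes Psmb8 and Psmb9 (274 against 72.8 CPM). The oxidase subunit Cybb lay the other way, at 20.8 CPM in Xcr1/Clec9a-positive and 286 CPM in Cd209a-positive cells. None of the 12 NF-kB genes was above a log2 ratio of 0, and 6 were at least 2-fold lower (14% of all genes were).

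The Cd209a-positive cells carried the cDC2 genes together with several genes shared with macrophages. All 13 measured cDC2 genes were above a log2 ratio of 0 and 7 were at least 2-fold higher (10.5% of all 9479 genes were higher and 6.71% lower), with a median of 1.14 against 0.02 over all genes. Mgl2, a lectin receptor of cDC2 and macrophages, was found in 94 of 109 cells, at 1964 CPM in the knockout dorsal and 1159 CPM in the knockout ventral library, and at 2016 CPM in the control dorsal and 1089 CPM in the control ventral library. In Xcr1/Clec9a-positive cells Mgl2 stood at 30.7 CPM pooled. Sirpa stood at 66.0 CPM in Cd209a-positive and 5.48 CPM in Xcr1/Clec9a-positive cells, and Irf4, the cDC2 transcription factor, at 62.95 CPM in Cd209a-positive and 31.8 CPM in Xcr1/Clec9a-positive cells. The 4 cDC2 genes that were not measured, Cd209e, Clec4a4, Esam and Ltb, had UMIs in at most 3 members each.

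Ranked over all genes, Fcrls (11.0-fold, interval 7.58 to 16.4, in 59 of 109 cells), Ccl2 (5.38-fold, interval 4.36 to 6.69, in 54 of 109 cells), a chemokine for monocytes, Kitl (9.88-fold, interval 5.30 to 20.4), the ligand of the receptor Kit, and Ecm1 (8.22-fold, interval 5.88 to 11.8) stood apart in Cd209a-positive cells. Each of these 4 genes was at least as high in macrophage-type cells: Fcrls stood at 205 CPM in Cd209a-positive cells against 210.0 CPM in macrophage-type cells, and Ccl2 at 340.1 CPM in Cd209a-positive cells against 1077 CPM in macrophage-type cells. Retnla, Sparcl1, Ccl7, Fn1 and F13a1 also led, but Sparcl1 was held by 3 cells, 116 of its 126 UMIs coming from 1 of them, and F13a1 by 10. Summed macrophage genes stood at 646 CPM in Cd209a-positive, 85.5 CPM in Xcr1/Clec9a-positive and 337 CPM in Ccr7-positive cells, and summed monocyte genes at 873 CPM in Cd209a-positive, 274 CPM in Xcr1/Clec9a-positive and 249.6 CPM in Ccr7-positive cells. Genes of the handling list, which respond to tissue dissociation in many cell types (Fos, Jun, Hspa1a and others), were above a log2 ratio of 0 in 13 of 14 cases with 6 at least 2-fold higher. Their median was 0.84 in Cd209a-positive, -0.66 in Ccr7-positive and -0.73 in Xcr1/Clec9a-positive cells, and the part of this list in the other differences was not tested.

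The Ccr7-positive cells held most co-signalling genes at higher levels than the other members. Of 11 measured co-signalling genes 8 were above a log2 ratio of 0 and 5 at least 2-fold higher (3.46% of all 10112 genes were, and 16.5% were lower), with a median of 0.87 against -0.20 over all genes. Cd40, the receptor through which helper T cells license dendritic cells, stood at 282 CPM in Ccr7-positive cells, 157 CPM in Xcr1/Clec9a-positive and 83.3 CPM in Cd209a-positive cells. Cd80, a ligand of CD28, stood at 259 CPM in Ccr7-positive, 111 CPM in Xcr1/Clec9a-positive and 101 CPM in Cd209a-positive cells. Tnfsf4, Cd274 and Pdcd1lg2 were the other 3, at 16.8, 50.5 and 12.3 CPM in Ccr7-positive cells, and Tnfsf4 was held by 3 members in all. All 12 NF-kB genes were above 0 with a median of 0.63, Traf1 being the only one at least 2-fold higher, at 698 CPM against 278 CPM in Xcr1/Clec9a-positive and 327 CPM in Cd209a-positive cells.

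Of 22 measured genes of mature dendritic cells 10 were at least 2-fold higher (3.46% of all genes were), but the pattern was partial. Il15, Cd63 and Bcl2l14 were at least 2-fold lower (16.5% of all genes were). Fscn1, the actin-bundling gene that marks dendritic cells on their way to lymph nodes, was held by 4 of 215 members, or 1.86%, against 2.13% of macrophage-type cells, and Cacnb3 by 1 member; Apol7c and Slco5a1 had 0 UMIs. Ccl22, a chemokine for T cells, was 15.3-fold (95% interval 9.25 to 26.4) higher and was held by 9 of 39 Ccr7-positive cells. Of its 76 UMIs in these cells 40 came from 1 knockout ventral member, and without that member it was 7.52-fold (95% interval 4.24 to 13.7) higher, at 57.2 CPM. Ccl17, which shares the receptor Ccr4, stood at 222 CPM against 94.4 CPM in Cd209a-positive cells. Stat4 stood at 312 CPM against 156 CPM in Cd209a-positive and 41.7 CPM in Xcr1/Clec9a-positive cells. Il1b, the inflammatory cytokine, stood at 5017 CPM pooled, and at 3819 and 3842 CPM in knockout dorsal and knockout ventral Ccr7-positive cells, against 4292 and 6015 CPM in control dorsal and control ventral ones. Each library was thus above the pooled level of Cd209a-positive cells (1893 CPM). The remaining leading genes were Ptgs2 (8.60-fold, interval 5.45 to 13.9, in 13 of 39 cells), which makes prostaglandins, Nrg1 (in 8 of 39 cells), Mcemp1 (5.22-fold, interval 3.89 to 7.03, in 25 of 39 cells), Mmd, Arl5c (3.56-fold, interval 3.03 to 4.18, in 31 of 39 cells) and Mir155hg (3.52-fold, interval 2.84 to 4.38), the host transcript of the immune microRNA miR-155. The histone genes H2ac4, H2ac8 and H3c2 also led, each in only 4 cells, with ratios of 1.54, 1.44 and 1.68 without the member with the most UMIs of each.

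**Figure D3:**
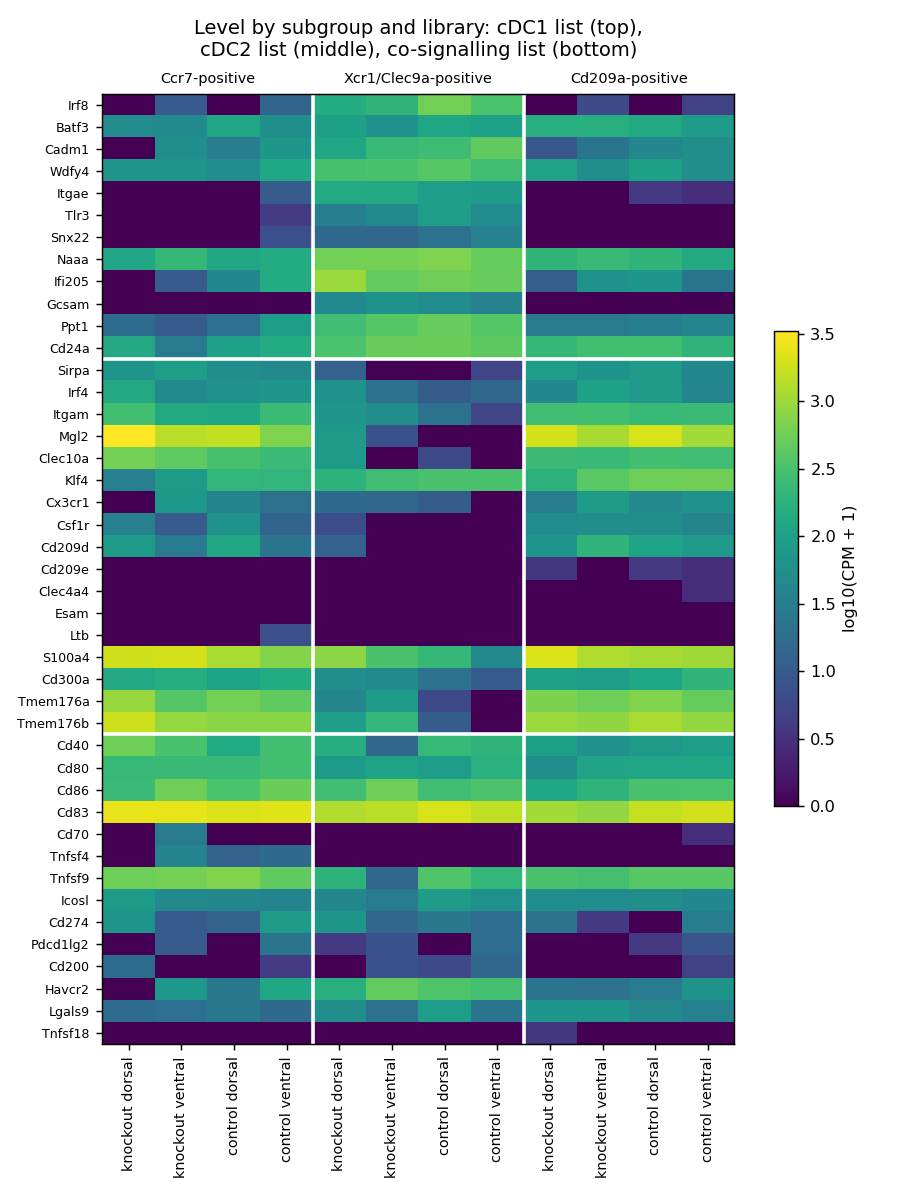
Levels (log10 of CPM + 1, colour) of the cDC1, cDC2 and co-signalling genes in each subgroup and library. Most cDC1 genes are highest in the Xcr1/Clec9a-positive columns, except Batf3, and most cDC2 genes in the Cd209a-positive and Ccr7-positive ones; the knockout dorsal Ccr7-positive column rests on 3 cells.

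Presentation on class II molecules is shared by all dendritic cells and is switched on by the transactivator Ciita, which acts at promoters with conserved boxes, among them the Y box bound by NF-Y. The windows before the start of 4 class II genes that hold the core letters of a Y box are shown so that the shared element can be seen. Each line gives the 120 bases before the start in the GRCm38.p6 build (RefSeq), 5′ to 3′, with the searched motif in capitals.
H2-Eb1, chr17:34305747-34305866, plus strand: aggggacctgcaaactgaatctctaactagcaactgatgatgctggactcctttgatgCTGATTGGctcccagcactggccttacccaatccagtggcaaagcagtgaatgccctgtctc
H2-Aa, chr17:34287824-34287943, minus strand: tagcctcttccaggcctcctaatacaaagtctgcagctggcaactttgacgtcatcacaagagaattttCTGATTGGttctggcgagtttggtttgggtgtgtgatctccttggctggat
H2-DMb1, chr17:34153071-34153190, plus strand: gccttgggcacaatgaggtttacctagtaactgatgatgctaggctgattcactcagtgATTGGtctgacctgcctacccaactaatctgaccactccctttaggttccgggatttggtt
H2-DMb2, chr17:34145129-34145248, plus strand: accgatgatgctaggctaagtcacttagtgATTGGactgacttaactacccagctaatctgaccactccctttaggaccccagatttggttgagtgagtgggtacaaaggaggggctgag

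The motif in H2-Eb1 and H2-Aa is CTGATTGG, which begins 62 bases before the start in H2-Eb1 and 51 bases before it in H2-Aa. In H2-DMb1 and H2-DMb2 the shorter ATTGG, which CTGATTGG contains, begins 61 and 90 bases before the start. Both strands were searched. Of all 32851 promoter windows 2.84% held CTGATTGG and 21.3% held ATTGG. Of 15 windows of 11 class II machinery genes in the table, 3 (20%) held CTGATTGG and 7 (46.7%) held ATTGG. The 4 sequences were picked for these matches, and a match is a description only.

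The class II genes outside the rule were then read. H2-Eb1, a class II beta chain outside the rule, had UMIs in all 215 members, at 13007 CPM in the knockout dorsal and 10803 CPM in the knockout ventral library, against 15159 CPM in the control dorsal and 14084 CPM in the control ventral library. Macrophage-type cells stood at 8504, 6874, 8032 and 7865 CPM in the same libraries, so the ranges did not overlap. The rule asked members, but not macrophage-type cells, for at least 10 UMIs of other class II genes. The H2-Eb1 gap is therefore not independent of the rule, and the share of all genes without overlap was not counted. Ciita stood at 67.2, 51.3, 61.6 and 49.4 CPM in the knockout dorsal, knockout ventral, control dorsal and control ventral libraries in members and between 18.5 and 41.6 CPM in macrophage-type cells. H2-DMb2, a chain of the peptide exchange factor DM, stood at 239, 202, 194 and 154 CPM in the knockout dorsal, knockout ventral, control dorsal and control ventral libraries and between 11.9 and 22.7 CPM in macrophage-type cells. H2-Oa and H2-Ob, which form the DM inhibitor DO, stood between 69.3 and 123 CPM and between 84.4 and 139.7 CPM. The protease Ctss lay below macrophage-type cells in every library, at 662 to 872 CPM against 1219 to 2016 CPM, and so did the protease Lgmn, at 63.4 to 128 CPM against 567 to 936 CPM.

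Between genotypes, 8 of 12 class II machinery genes were above a log2 ratio of 0 in dorsal and 7 in ventral knockout over control, with medians of 0.09 and 0.10. With the mix held fixed over the 3 marker subgroups the medians were 0.01 and 0.10, on the same side of 0. Over 4 subgroups, where 1 knockout dorsal cell makes up the others, they were -0.68 and -0.03, so the direction of the list depends on the setting. H2-Eb2 was at least 2-fold lower in both pairs (8.94% of all genes in the dorsal and 5.31% in the ventral pair were), at 3.88, 3.01, 16.4 and 10.8 CPM in the knockout dorsal, knockout ventral, control dorsal and control ventral libraries, values of at most 12 UMIs. Between regions, the class II median was 0.25 in knockout (9 of 11 genes above 0) and 0.31 in control dorsal over ventral cells (10 of 12), against -0.15 and 0.02 over all genes. Over the alternatives the knockout region median ranged from -0.10 to 0.43. In macrophage-type cells the same medians were -0.06 and 0.23. H2-DMa lay at 1039.6 CPM in knockout dorsal cells against 876 CPM in knockout ventral cells, and 912 CPM in control dorsal cells against 709 CPM in control ventral cells, higher in dorsal cells in both genotypes, with ratios of 1.19 (95% interval 1.07 to 1.32) and 1.29 (95% interval 1.16 to 1.43).

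Some members held transcripts of mitotic genes. At least 2 of 8 mitotic genes had a UMI in 9 of 41 knockout dorsal members (22.0%) and 4 of 35 knockout ventral members (11.4%), against 4 of 65 control dorsal members (6.15%) and 11 of 74 control ventral members (14.9%). With cells thinned to 8000 UMIs the shares were 5 of 35 (14.3%) in knockout dorsal and 2 of 32 (6.25%) in knockout ventral members, against 4 of 55 (7.27%) in control dorsal and 7 of 59 (11.9%) in control ventral members. Without thinning, macrophage-type cells had such UMIs in 0.610% of knockout dorsal and 2.27% of knockout ventral cells, against 0.395% of control dorsal and 3.11% of control ventral cells. Thinned to 8000 UMIs, their shares were 0.847% in knockout dorsal and 2.4% in knockout ventral cells, against 0% in control dorsal and 3.82% in control ventral cells. The 28 members concerned were 8 Ccr7-positive, 10 Xcr1/Clec9a-positive and 10 Cd209a-positive cells. Hmgb2, a chromatin protein gene of dividing cells, stood at 449 CPM in the knockout dorsal and 253 CPM in the knockout ventral library, against 241 CPM in the control dorsal and 369 CPM in the control ventral library, and Top2a, the topoisomerase of dividing cells, at 86.6, 64.8, 32.9 and 87.1 CPM in the knockout dorsal, knockout ventral, control dorsal and control ventral libraries. All 15 measured proliferation genes had a log2 ratio above 0 in dorsal knockout over control cells, with a median of 0.89 and 6 at least 2-fold higher (7.08% of all genes were), and 4 of 15 did in the ventral pair, with a median of -0.16. Dorsal over ventral, the median was 0.34 in knockout and -0.82 in control cells, so knockout dorsal and control ventral cells were the higher ones. With the subgroup mix held fixed the knockout region median was -0.88 over 4 subgroups and -0.07 over 3, on the other side of 0, and the ventral genotype median was 0.11 and 0.03. These values rest on few cells: the UMIs of Cenpf and Birc5 came from 15 members each.

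Knockout and control were then compared gene by gene within each region. In the dorsal pair 7.08% of 7128 genes were at least 2-fold higher and 8.94% at least 2-fold lower in knockout cells, and in the ventral pair 10.4% of 7802 were higher and 5.31% lower. With TMM (trimmed mean of M-values) sizes every ventral log2 ratio is 0.23 lower, which gives 506 higher and 685 lower genes there, against 810 higher and 414 lower. The median log2 ratio over all genes was -0.03 in the dorsal and 0.14 in the ventral pair. Epithelial genes differed in the dorsal pair too: all 7 measured ones were at least 2-fold lower in knockout dendritic cells, with a median of -2.51, against -2.24 in macrophage-type cells. In the ventral pair 0 of 4 were, with a median of -0.07. The 2 fibroblast genes measured in the dorsal pair, Dcn and Lum, were at least 2-fold higher there, with a median of 5.07. The part of these epithelial and fibroblast transcripts in the differences below was not tested. Genes were named where both pairs lay on the same side and the nearer interval bound was farthest from 1.

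Lgals1, the lectin galectin-1, was higher in both knockout libraries, at 674 CPM in the knockout dorsal and 455 CPM in the knockout ventral library, against 353 CPM in the control dorsal and 242 CPM in the control ventral library. The ratios were 1.91 (95% interval 1.64 to 2.22) dorsal and 1.88 (95% interval 1.59 to 2.22) ventral, against 1.20 and 0.803 in macrophage-type cells. Fcgr3, an activating receptor for antibody, stood at 131 CPM in the knockout dorsal and 142 CPM in the knockout ventral library, against 58.9 CPM in the control dorsal and 62.0 CPM in the control ventral library, with ratios of 2.22 (95% interval 1.54 to 3.25) and 2.29 (95% interval 1.66 to 3.17). Each of these genes had both knockout values above both control values. They were ranked for lying on the same side in both pairs, so this separation is not support, and the share of all genes with it was not counted. Sult1a1, a sulfotransferase, stood at 95.7, 78.4, 39.7 and 32.3 CPM in the knockout dorsal, knockout ventral, control dorsal and control ventral libraries (ratios 2.41 dorsal and 2.42 ventral), and Ifi203, an interferon-inducible gene, at 160.3, 107, 62.98 and 46.7 CPM in the knockout dorsal, knockout ventral, control dorsal and control ventral libraries (ratios 2.55 and 2.29). Macrophage-type cells had Sult1a1 ratios of 1.81 and 1.62. Ccl6 and Lyz2, genes of macrophages and monocytes, were also higher in both pairs, Lyz2 at 2745 CPM in the knockout dorsal and 4115 CPM in the knockout ventral library, against 1489.7 CPM in the control dorsal and 1547 CPM in the control ventral library. Without the member with the most UMIs in each library the Lyz2 ratio was 1.16 in the dorsal and 2.45 in the ventral pair. Lyz1, Retnla, Fn1 and Plac8 ranked beside them, but at least 92% of their knockout dorsal UMIs came from 1 cell, and without it the dorsal ratio of Fn1 was 0.619. The summed monocyte genes were higher in the same 2 libraries, in the knockout dorsal one partly through such single cells. Their part in these ratios was not tested.

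Among genes lower in both knockout libraries, Dusp5, which encodes a nuclear phosphatase of the kinase ERK, stood at 75.0 CPM in the knockout dorsal and 85.9 CPM in the knockout ventral library, against 216 CPM in the control dorsal and 224 CPM in the control ventral library. Its ratios were 0.347 (95% interval 0.252 to 0.471) dorsal and 0.384 (95% interval 0.283 to 0.514) ventral, against 1.06 and 1.43 in macrophage-type cells. Wnt11, a secreted Wnt ligand, stood at 86.6 CPM in the knockout dorsal and 133 CPM in the knockout ventral library, against 264 CPM in the control dorsal and 295 CPM in the control ventral library. Its ratios were 0.328 (95% interval 0.244 to 0.435) and 0.450 (95% interval 0.352 to 0.571), against 0.554 and 0.800 in macrophage-type cells. A Wnt11 UMI was found in 66.5% of members, 6.15% of macrophage-type cells and 1.54% of T-type cells. Outside the immune cells it was found in 12.6% of Epcam-positive cells and in 40.8% of cells with at least 5 Col1a1 UMIs and no Epcam or Ptprc UMI. Sqstm1, the autophagy receptor p62, stood at 606 CPM in the knockout dorsal and 677 CPM in the knockout ventral library, against 1057 CPM in the control dorsal and 1489 CPM in the control ventral library, with ratios of 0.574 (95% interval 0.510 to 0.644) and 0.455 (95% interval 0.409 to 0.505). For all 3 genes both knockout values lay below both control values, which follows in large part from how they were ranked. Mpp7, a scaffold of cell junctions, stood at 87.9, 159.8, 231 and 423 CPM in the knockout dorsal, knockout ventral, control dorsal and control ventral libraries; Rapgef2, an activator of the GTPase Rap1, at 60.8, 81.4, 157 and 222 CPM in the knockout dorsal, knockout ventral, control dorsal and control ventral libraries; and Flrt3, an adhesion protein, at 56.9, 76.9, 211 and 199 CPM in the knockout dorsal, knockout ventral, control dorsal and control ventral libraries. Ehd1, an endosome recycling gene, had ratios of 0.426 dorsal and 0.367 ventral, Spag9 of 0.463 and 0.581, and Xylt1 of 0.472 and 0.463. The dorsal log2 ratios of Spag9 and Xylt1 were 0.75 and 0.87, on the other side of 0, with the mix held fixed over 4 subgroups. The unnamed gene model Gm56626 stood at 2.59, 16.6, 125 and 126 CPM in the knockout dorsal, knockout ventral, control dorsal and control ventral libraries, with ratios of 0.0208 (95% interval 0.00248 to 0.0772) and 0.132 (95% interval 0.0644 to 0.243). It was also lower in knockout macrophage-type cells, with ratios of 0.123 and 0.312.

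Among gene lists, NF-kB genes lay on the low side in both pairs. The median log2 ratio of 12 genes was -0.55 in the dorsal pair, where 0 of 12 were above 0, and -0.48 in the ventral pair, where 3 of 12 were, against -0.28 and -0.19 in macrophage-type cells. The subunit gene Rel stood at 724 CPM in the knockout dorsal and 979.8 CPM in the knockout ventral library, against 1251 CPM in the control dorsal and 1552 CPM in the control ventral library. Nfkbie, an inhibitor of NF-kB, stood at 68.5 CPM in the knockout dorsal and 98.0 CPM in the knockout ventral library, against 173 CPM in the control dorsal and 179.6 CPM in the control ventral library, and the adhesion gene Icam1 at 301, 379.9, 639 and 507 CPM in the knockout dorsal, knockout ventral, control dorsal and control ventral libraries. Nfkbie and Icam1 were the 2 genes at least 2-fold lower in the dorsal pair, where 8.94% of all genes were, and 0 of 12 were in the ventral pair, where 5.31% of all genes were. NF-kB genes were higher in Ccr7-positive cells than in other members, and the share of these cells was lower in both knockout libraries. With the mix held fixed over the 3 marker subgroups the list median was -0.41 in the dorsal and -0.37 in the ventral pair, and over all alternatives it ranged between -0.67 and -0.38 dorsal and between -0.72 and -0.37 ventral. Genes of mature dendritic cells had medians of -0.65 dorsal and -0.36 ventral, and co-signalling genes -0.52 and -0.39. With the mix held fixed over the 3 marker subgroups all of these were nearer to 0. Mature dendritic cell genes were then at -0.37 dorsal and -0.09 ventral, and co-signalling genes at -0.26 and -0.23.

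**Figure D4:**
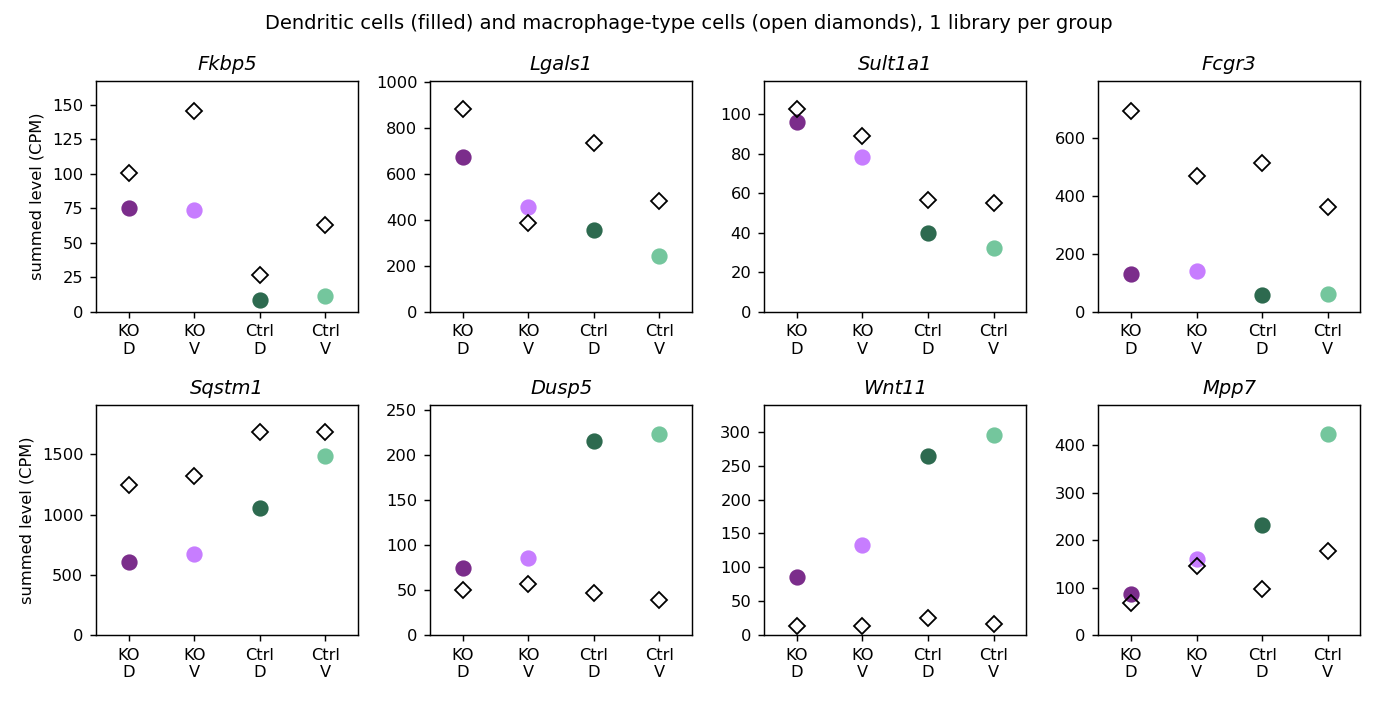
Levels (CPM, linear axes from 0) of 8 genes in dendritic cells (filled) and macrophage-type cells (open diamonds) of the 4 libraries, knockout left of control. Fkbp5, Lgals1, Sult1a1 and Fcgr3 are higher in dendritic cells of both knockout libraries and Sqstm1, Dusp5, Wnt11 and Mpp7 lower.

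Fkbp5, which encodes a chaperone of the glucocorticoid receptor and is induced by glucocorticoids, was singled out from its list after its values were seen. It stood at 75.0 CPM in the knockout dorsal and 73.9 CPM in the knockout ventral library, against 8.22 CPM in the control dorsal and 11.7 CPM in the control ventral library. The knockout over control ratios were 9.13 (95% interval 3.95 to 25.9) dorsal and 6.33 (95% interval 3.38 to 12.7) ventral, against 3.77 and 2.30 in macrophage-type cells. A UMI was found in 27 of 41 knockout dorsal and 24 of 35 knockout ventral members, against 5 of 65 control dorsal and 11 of 74 control ventral members. At 8000 UMIs per cell the shares were 42.9% and 43.75% in knockout dorsal and knockout ventral members, against 7.27% and 6.78% in control dorsal and control ventral members; macrophage-type cells gave 57.6 and 59.2% against 18.6 and 28.2%. The level was higher in knockout cells in each marker subgroup, at 85.9 and 91.9 CPM in knockout dorsal and knockout ventral Cd209a-positive cells, against 14.0 and 5.64 CPM in control dorsal and control ventral ones. Of the clock and glucocorticoid list 2 of 6 measured genes were at least 2-fold higher in the dorsal pair (Fkbp5 and Klf9, where 7.08% of all genes were) and 2 of 7 in the ventral pair (Fkbp5 and Zbtb16, where 10.4% were). Most of the list lay on the low side: 4 of 6 genes were below 0 in the dorsal pair, with a median of -0.57 and Nr1d2 at least 2-fold lower, and 4 of 7 in the ventral pair, with a median of -0.15. With the mix held fixed over 4 subgroups these medians were 1.35 and 0.05. Klf9, a glucocorticoid-induced transcription factor, had ratios of 2.54 (95% interval 1.31 to 5.24) and 1.78 (95% interval 1.19 to 2.65). Tsc22d3, another glucocorticoid-induced gene, stood at 282 CPM in the knockout dorsal and 228 CPM in the knockout ventral library, against 352 CPM in the control dorsal and 273 CPM in the control ventral library, and Per1 at 71.1, 93.5, 126 and 111 CPM in the knockout dorsal, knockout ventral, control dorsal and control ventral libraries. The labels name no time of day of collection.

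The handling list, read as a measure of dissociation, had a median log2 ratio of -0.46 in the dorsal pair with 0 of 14 genes above 0, and 0.14 in the ventral pair with 10 of 14. In macrophage-type cells of the same libraries the dorsal median was 0.31 with 12 of 14 above 0. Hspa1a, a heat shock gene, stood at 86.6 CPM in the knockout dorsal and 418 CPM in the knockout ventral library, against 283 CPM in the control dorsal and 120.3 CPM in the control ventral library. Hspa1a was thus lowest in knockout dorsal and highest in knockout ventral dendritic cells, and the part of this list in the differences above was not tested.

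Several chemokine and cytokine genes differed in opposite directions in the dorsal and ventral pairs. Cxcl9, the interferon-induced chemokine for CXCR3-positive T cells, stood at 411 CPM in the knockout dorsal and 9.04 CPM in the knockout ventral library, against 26.0 CPM in the control dorsal and 70.0 CPM in the control ventral library. It had UMIs in 13 knockout dorsal and 3 knockout ventral members, against 5 control dorsal and 12 control ventral members. Its ratio was 15.8 (95% interval 9.95 to 26.6) dorsal and 0.129 (95% interval 0.0460 to 0.294) ventral, and thinned to 8000 UMIs 31.4% of knockout dorsal and 9.375% of knockout ventral members held it, against 9.09% of control dorsal and 15.3% of control ventral members. Il1rn, the antagonist of the interleukin-1 receptor, followed the same order, at 107 CPM in the knockout dorsal and 12.1 CPM in the knockout ventral library, against 20.5 CPM in the control dorsal and 101 CPM in the control ventral library. The knockout dorsal library was therefore the highest for both genes, the knockout ventral library the lowest. Tnf stood at 85.3 CPM in the knockout dorsal and 137 CPM in the knockout ventral library, against 467 CPM in the control dorsal and 144 CPM in the control ventral library, with a dorsal ratio of 0.183, or 0.294 without the member with the most UMIs. The lipopolysaccharide co-receptor Cd14 (ratio 0.403 dorsal and 0.865 ventral) and the ubiquitin-like interferon gene Isg15 (0.324 and 1.12) were named for the dorsal pair; the difference between pairs was not tested. The dorsal log2 ratios of Cd14 and Ints6 were 0.26 and 0.93, on the other side of 0, with the mix held fixed over 4 subgroups. Heph, an iron-exporting oxidase, stood at 1835 CPM in the knockout dorsal and 901 CPM in the knockout ventral library, against 631 CPM in the control dorsal and 1346 CPM in the control ventral library, with a dorsal ratio of 2.91 (95% interval 2.62 to 3.24), against 3.25 in macrophage-type cells. Cdk8 and Gphn had dorsal ratios of 3.41 and 3.14, which were 1.50 and 1.46 without the member with the most UMIs. The hypoxia gene Hilpda stood at 149, 110.0, 108 and 323 CPM in the knockout dorsal, knockout ventral, control dorsal and control ventral libraries, and the stress gene Ier3 at 481, 718, 486 and 303 CPM in the knockout dorsal, knockout ventral, control dorsal and control ventral libraries. Ext1 and Ints6 were the remaining genes named as lower in the dorsal pair (ratios 0.287 and 0.299), and P3h2, Nfam1 and Trerf1 those named as higher in the ventral pair (ratios 4.10, 3.15 and 2.89).

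Dorsal and ventral trachea were compared within each genotype. In knockout cells 4.16% of 7281 genes were at least 2-fold higher and 12.6% at least 2-fold lower in dorsal than ventral cells, and in control cells 5.26% of 7678 were higher and 7.4% lower. The shift that TMM sizes take off each knockout log2 ratio is -0.18, which gives 429 higher and 691 lower genes, against 303 higher and 921 lower. Epithelial genes had a median of -1.34 in the knockout region pair, with 2 of 4 at least 2-fold lower, and of 1.04 in the control region pair, with 4 of 7 at least 2-fold higher. Fibroblast genes had medians of -2.19 in knockout and -4.50 in control cells, where 4 of 4 were at least 2-fold lower. Their part in the region differences was not tested. The region pairs use the same 4 libraries as the genotype pairs, so their values are not independent of those above.

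Klrb1b, an inhibitory lectin receptor of the natural killer family, stood at 453 CPM in knockout dorsal cells against 211 CPM in knockout ventral cells, and 390.2 CPM in control dorsal cells against 201 CPM in control ventral cells. The dorsal over ventral ratios were 2.14 (95% interval 1.76 to 2.63) in knockout and 1.94 (95% interval 1.62 to 2.32) in control cells, against 2.68 and 4.91 in macrophage-type cells. Tppp3, a microtubule-binding gene, stood at 187 CPM in knockout dorsal cells against 90.4 CPM in knockout ventral cells, and 142 CPM in control dorsal cells against 54.8 CPM in control ventral cells, with ratios of 2.07 (95% interval 1.52 to 2.85) and 2.60 (95% interval 1.88 to 3.63), and 3.29 and 2.64 in macrophage-type cells. Both genes were thus higher in dorsal cells of both genotypes, as their ranking requires, and of both cell classes. Cst3, the protease inhibitor cystatin C, abundant in dendritic cells, stood at 16362 CPM in knockout dorsal cells against 11984 CPM in knockout ventral cells, and 14608 CPM in control dorsal cells against 11269 CPM in control ventral cells. Its ratios were 1.37 (95% interval 1.33 to 1.40) and 1.30 (95% interval 1.26 to 1.33), against 1.05 and 1.01 in macrophage-type cells. Ckb, a creatine kinase, stood at 917 CPM in knockout dorsal cells against 618 CPM in knockout ventral cells, and 964 CPM in control dorsal cells against 590.0 CPM in control ventral cells, and Ccnd1, which encodes cyclin D1, at 182 CPM in knockout dorsal cells against 99.5 CPM in knockout ventral cells, and 178 CPM in control dorsal cells against 106 CPM in control ventral cells. The sterol synthesis gene Fdps had ratios of 2.14 in knockout and 1.91 in control cells, Ms4a4c of 2.40 and 1.92, Pdlim1 of 1.77 and 2.39, the actin-binding gene Tmsb4x of 1.48 and 1.29, and the intermediate filament gene Vim of 1.43 and 1.46. With the mix held fixed over 4 subgroups the log2 ratios of Cst3 and Ckb in knockout cells were -0.05 and -0.03, and that of Ccnd1 in control cells -0.11.

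Lower in dorsal cells of both genotypes were Lilrb4b, a receptor of myeloid cells, and Mthfs, a folate enzyme. Lilrb4b stood at 166 CPM in knockout dorsal cells against 292 CPM in knockout ventral cells, and 178 CPM in control dorsal cells against 357 CPM in control ventral cells. Mthfs stood at 58.2 CPM in knockout dorsal cells against 163 CPM in knockout ventral cells, and 65.7 CPM in control dorsal cells against 140.1 CPM in control ventral cells. Lilrb4b had ratios of 0.566 (95% interval 0.449 to 0.711) and 0.498 (95% interval 0.405 to 0.609), against 1.06 and 1.09 in macrophage-type cells. Abtb2 stood at 40.1 CPM in knockout dorsal cells against 110.0 CPM in knockout ventral cells, and 86.3 CPM in control dorsal cells against 183 CPM in control ventral cells. Phlpp1, Gfod1 and Cmip had ratios of 0.323, 0.391 and 0.529 in knockout and 0.574, 0.505 and 0.558 in control cells. With the mix held fixed over 4 subgroups, the knockout log2 ratios of Phlpp1, Gfod1, Cmip and Lilrb4b were 0.91, 1.99, 0.75 and 2.10, and over 3 subgroups that of Lilrb4b was 0.60, all on the other side of 0. Lyz1, Retnla, Fn1 and H2ac4 also ranked, each resting on few cells.

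In control cells alone Ccl17 had a dorsal over ventral ratio of 4.29 (95% interval 2.73 to 6.93), at 173 CPM in knockout dorsal cells against 140.2 CPM in knockout ventral cells, and 104 CPM in control dorsal cells against 24.2 CPM in control ventral cells, so the control ventral library was the low one. Txnip, an inhibitor of thioredoxin, had a ratio of 2.84 there. In knockout cells alone the chemokine gene Cxcl10 was higher in dorsal cells (3.23, interval 2.32 to 4.57), and Bag3, a co-chaperone of heat shock proteins, was lower (0.184, interval 0.0897 to 0.347). The cDC1 list had medians of 0.40 in knockout (9 of 11 genes above 0) and 0.53 in control cells (10 of 12), against 0.04 and -0.51 in macrophage-type cells, and the Xcr1/Clec9a-positive share was higher in dorsal cells of both genotypes. With the subgroup mix held fixed over the 3 marker subgroups, the cDC1 median in knockout cells was -0.26, on the other side of 0.

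**Figure D5:**
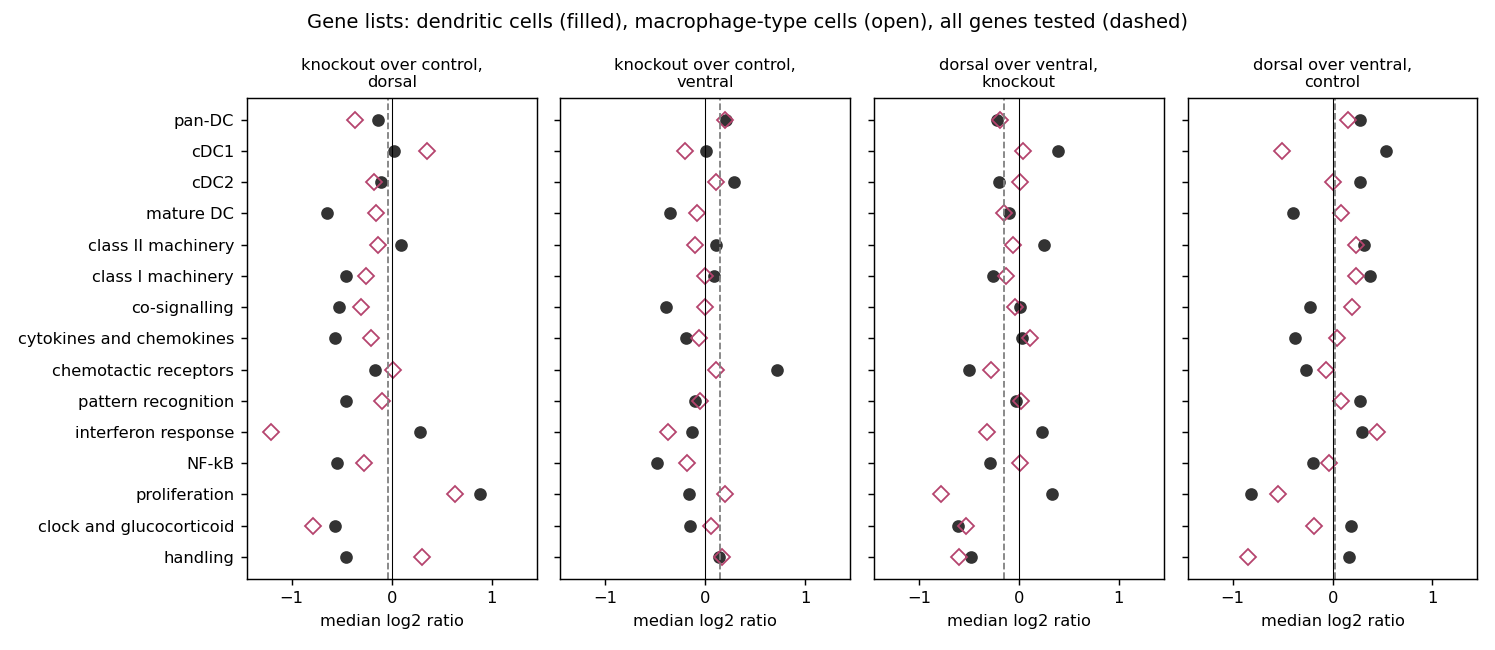
Median log2 ratio of each gene list in the 4 comparisons, for dendritic cells (filled) and macrophage-type cells (open), with the median of all genes tested dashed. NF-kB genes lie below the dashed line in all 4 panels, and cDC1 genes above it in both dorsal over ventral panels.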

How the data were processed

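The deposited matrices hold raw UMI counts per gene and barcode, made by the authors with Cell Ranger 10.0.0 on GRCm39, per the submitters' processing notes; libraries were 10x GEM-X 5′ per the labels. Cells needed 500 or more genes and no more than 15% mitochondrial UMIs. Members and gene lists were chosen with earlier results of these data known. Member UMIs were summed per library. Ratios of CPM carry conditional binomial 95% intervals, shares Clopper-Pearson intervals, and log2 ratios add 0.5 UMIs. List genes needed 10 UMIs in 1 library of the pair. Named genes needed 50 UMIs and 20 CPM and, pooled, at least 10% of the level of the highest other class, and were ranked by the nearer interval bound: 10 each way for both pairs or a subgroup, up to 5 for 1 pair. Doublets were called with Scrublet (scanpy 1.11.5) and kept; its automatic threshold failed in the knockout ventral library, where a fixed rate of 0.4% per 1000 cells was used. Scripts (Python 3.11.15, numpy 2.4.6, scipy 1.17.1) were tested on simulated data. Red cells were lysed after papain digestion (45 min, 37 °C) and a 100-µm strainer, per the labels.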

Additional observations from a re-analysis of the deposited data

Results flagged for a closer look

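The following genes had ratios in opposite directions in the pairs named, and none of these differences was tested. Knockout over control, Cxcl9 had ratios of 15.8 dorsal and 0.129 ventral, Il1rn 5.23 and 0.120, Cdk8 3.41 and 0.452, H1f4 3.11 and 0.468, H4c4 2.54 and 0.416, and the chemokine gene Ccl4 0.459 and 2.18. Dorsal over ventral, Cxcl9 had ratios of 45.5 in knockout and 0.371 in control cells, Il1rn 8.90 and 0.204, Cdk8 3.15 and 0.418, Heph 2.04 and 0.469, and P3h2 0.327 and 2.09. The 2 kinds of ratio share the same 4 libraries.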

How the results depend on the processing

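No paired analysis was possible because each group is 1 library. Of the gene log2 ratios recomputed under other settings, 1969 moved by less than their counting error and 415 by more. Across these settings 130 changed sign, 10 of them from at least 2-fold. A minimum of 50 UMIs changes only which genes are tested, so its 255 ratios are among the 1969 by construction. With 1 UMI added all 268 ratios stayed within counting error. Of the recomputed list medians 485 kept their sign, 11 changed it from at least 0.25 on the log2 scale and 44 from nearer to 0. With members chosen again after thinning to 5000 UMIs per cell, 12.4% of pooled members were Ccr7-positive, 16.7% Xcr1/Clec9a-positive and 13.9% others. With 1 UMI for a subgroup 2.33% were others. Genes at least 2-fold higher and lower numbered 506 and 685 in the ventral genotype pair with TMM sizes, under which ratios are 0.23 lower on the log2 scale. With at least 50 UMIs they numbered 70 and 128 (dorsal genotype pair), 83 and 107 (ventral), 24 and 147 (region, knockout) and 30 and 106 (region, control), since fewer genes are tested. With the subgroup mix held fixed, where the knockout dorsal library has 1 cell in the others, they numbered 931 and 1478 (dorsal genotype pair), 685 and 1949 (region, knockout) and 742 and 1447 (region, control), and 865 were lower in the ventral genotype pair. With means of per-cell CPM 792 were lower in the ventral genotype pair, 531 higher in the knockout region pair, and 654 higher and 987 lower in the control region pair. Without the member with the most UMIs, 496 were higher in the ventral genotype pair. From at least 0.25 (lists) or 2-fold (genes) signs changed, on the log2 scale, as follows, and the cause was not tested. In the dorsal genotype pair cytokines were at 0.027 with at least 50 UMIs and 0.021 without the highest member, Fn1 at -0.69 without the highest member, and the clock list at 0.28 with per-cell means. With the mix fixed over 4 subgroups that pair had the clock list at 1.35, Cd14 at 0.26, Ints6 at 0.93, Phlpp1 at 1.87, Spag9 at 0.75 and Xylt1 at 0.87, and the knockout region pair had cDC1 at -0.38, proliferation at -0.88, Gfod1 at 1.99, Ints6 at 0.0076 and Phlpp1 at 0.91. With the mix fixed over 3 subgroups the knockout region pair had cDC1 at -0.26 and proliferation at -0.067, and the control region pair chemotactic receptors at 0.19. From nearer to 0, the same setting put cDC2 at 0.33 (dorsal genotype pair) and 0.40 (knockout region pair), cDC1 at -0.24 (dorsal) and -0.08 (ventral genotype pair), proliferation at 0.03 and class I at -0.03 (ventral genotype pair), pattern recognition at 0.07 (knockout region pair) and the clock list at -0.31 (control region pair). Interferon genes in the control region pair were at -0.10 with at least 50 UMIs and -0.13 without the highest member, and Lyz1 in the knockout region pair at 0.12 with doublets removed. Without the highest member of the subgroup, 5 of the 30 leading subgroup genes (Ccl22, H2ac4, H2ac8, H3c2 and Sparcl1) moved by over 1.5 times and 0 fell below 1. Leaving out the highest member and the mix over 3 subgroups were chosen after seeing the data. Depth limits single genes: with 35 to 74 cells per library, a few cells decide many ratios.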
